A study of Rattus norvegicus with 12 samples.

Results

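The genes described here encode the proteins of the cytosolic ribosome. They were taken from the annotation of a rat whole-transcript gene array as the probe sets of the main category that carry exactly 1 gene symbol of the form Rpl, Rps, Rplp or Rpsa. Where a symbol had several probe sets, the one with the brightest mean over the 6 arrays stands for it. This gave 57 genes out of 18304 genes with a symbol of their own, 42 of the large subunit and 15 of the small subunit, chosen from 197 probe sets. A further 37 symbols of the same form, among them Rps6, Rps14, Rps18, Rpl13a, Rplp2, Rps4x and Rpl22l1, occurred only on probe sets shared with other symbols and are not described.

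The study exposed cultured Sertoli cells, the somatic cells that nurse germ cells in the seminiferous tubule, to a compound that the labels abbreviate as MBP. The 3 MBP samples received 0.1 mM MBP for 24 h, and the 3 control samples were kept for the same time without it. All cultures came from testes of 9-day-old rats, were grown in medium with fetal bovine serum, and had 24 h of primary culture before the exposure. Samples of each group carry the numbers 1 to 3, and nothing in the labels says whether a number stands for an animal, an isolation or a dish, so p-values measure only the spread between these samples, which may be technical.

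Ribosomal proteins assemble with ribosomal RNA in the nucleolus into a small subunit, which decodes the messenger RNA, and a large subunit, which forms the peptide bond. Their messenger RNAs are abundant in nearly all cells and typically begin with a tract of pyrimidines, the 5′ terminal oligopyrimidine tract, through which mTORC1 and Larp1 control their translation. That control changes how often a messenger RNA is read and need not change its amount, and an expression array measures the amount.

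The letters around the annotated transcript start are shown first, because the pyrimidine tract is the sequence feature these genes are known for. RefSeq promoters of build GRCr8 were matched for 44 of the 57 genes. The windows below run 5′ to 3′ on the transcript strand, from 40 bases before the annotated start to 20 bases after it. Capitals mark any of the pyrimidine words CTTTC or CTTTT or TCTTT or CCTTT or TTTCC or CTCTT, which overlap each other, where they lie within 10 bases of the start. The first 6 genes hold such a word and the last 4 do not.
Rpl10, chrX:157205810-157205869, plus strand: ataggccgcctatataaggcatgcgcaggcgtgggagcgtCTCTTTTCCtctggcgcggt
Rpl22, chr5:168117921-168117980, plus strand: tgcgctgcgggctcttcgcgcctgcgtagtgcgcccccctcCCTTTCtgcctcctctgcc
Rpl31, chr9:49143071-49143130, plus strand: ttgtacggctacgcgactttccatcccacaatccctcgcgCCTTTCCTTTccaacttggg
Rplp1, chr8:71290853-71290912, minus strand: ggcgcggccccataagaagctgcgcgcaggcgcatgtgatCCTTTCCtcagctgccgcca
Rps15, chr7:10068096-10068155, minus strand: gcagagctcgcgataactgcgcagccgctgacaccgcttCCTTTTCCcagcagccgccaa
Rps27, chr2:177964587-177964646, minus strand: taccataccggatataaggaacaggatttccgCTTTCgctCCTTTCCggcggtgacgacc
Rpl10l, chr6:90281963-90282022, minus strand: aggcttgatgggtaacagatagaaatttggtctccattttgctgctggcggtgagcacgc
Rpl39l, chr10:5966602-5966661, minus strand: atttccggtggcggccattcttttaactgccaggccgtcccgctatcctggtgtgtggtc
Rpl3l, chr10:14258406-14258465, plus strand: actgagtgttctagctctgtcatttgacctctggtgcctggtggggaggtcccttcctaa
Rpl3, chr7:113507971-113508030, minus strand: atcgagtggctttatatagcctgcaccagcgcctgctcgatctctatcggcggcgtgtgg

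At least 1 of these words lay near the start in 20 of the 44 ribosomal protein promoters, or 45.45%, against 9.13% of 27413 other promoters. TTTCC alone was found in 31.82% of the ribosomal protein promoters and in 2.71% of the others. A run of at least 8 pyrimidines, a length chosen after seeing the sequences, was present in 22 of the 44, against 6.81% of the others. Over the whole window of 300 bases and both strands, CCGGAAG was found in 18.18% of the ribosomal protein promoters against 9.2% of the others, TATAAA in 13.64% against 14.26%, and CACGTG in 6.82% against 6.65%. RefSeq lists Rpl10l and Rpl39l as Rpl10l1 and Rpl39l1. A match to these letters describes the annotated start only and says nothing of a working site.

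Signals are the authors' log2 values, 1 per probe set and array. Median log2 signals of the arrays ranged from 3.84 to 3.89, and 6647 to 8178 of 27342 probe sets per array exceeded the background, set at the 95th percentile of 1153 intron controls. The labelled cell type was checked against its markers: of 23 measured Sertoli cell markers, 7 exceeded background on all 6 arrays, among them Wt1, Gata4 and Clu, and 14 on none, among them Amh and Cldn11. Of 18 measured markers of peritubular myoid cells and fibroblasts, 16 exceeded background on all 6 arrays. Markers of Leydig cells (2 of 11), germ cells (1 of 15), macrophages and leukocytes (1 of 15), endothelium (0 of 9) and red cells (0 of 4) gave these counts above background on all 6 arrays.

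Of the 57 ribosomal protein genes, 50 exceeded background on all 6 arrays and 6 on none, and Rps27 did so on 4 arrays. Among the 50, group means ran from 6.549 to 12.6 in MBP cultures and from 6.576 to 12.595 in control cultures. The 6 genes not above background were Rpl3l, Rpl10l, Rpl39l, Rpl30l1, Rps4y2 and Rpl8. Rpl3l, Rpl10l and Rpl39l are paralogs known in mammals for expression in muscle or testis, and each has a widely expressed partner that was well above background here. Rpl3l, the striated muscle paralog, lay at 3.679, 3.994 and 3.587 in MBP cultures and at 3.679, 3.679 and 3.564 in control cultures. Rpl3, its partner at the peptidyl transferase centre, lay at 10.344, 10.179 and 9.842 in MBP cultures and at 10.37, 10.277 and 9.949 in control cultures. Rpl10l, a retrogene of Rpl10 that is used in mouse spermatocytes, lay at 4.377, 4.361 and 4.407 in MBP cultures and at 4.401, 4.361 and 4.119 in control cultures. Rpl39l, known from mouse male germ cells, lay at 2.424, 2.595 and 2.389 in MBP cultures and at 2.595, 2.624 and 2.421 in control cultures. Its partner Rpl39, at the exit of the peptide tunnel, lay at 10.681, 10.531 and 10.337 in MBP cultures and at 10.73, 10.604 and 10.228 in control cultures. At background, differences between the groups have no clear meaning for these paralogs. Rps27 lay at 6.171, 5.858 and 5.543 in MBP cultures and at 6.237, 6.389 and 5.483 in control cultures, and both number 3 samples were below background. For Rpl8 the only probe set, annotated with 1 transcript record, averaged 3.31, and whether it reports the Rpl8 messenger RNA was not tested.

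The signal of a ribosomal protein gene can include copies elsewhere in the genome, since these genes have many processed pseudogenes. The annotation marks 23 of the 57 chosen probe sets as prone to cross-hybridisation. The chosen probe set lay on the chromosome of its gene in 35 cases and on another chromosome in 21, of which 16 carry that mark. Those 21 spanned a median of 463 bases, against 3105 bases for the 35. For 16 of the 21, a further probe set on the gene's own chromosome was also above background, and its difference between MBP and control cultures lay within a median of 0.013 on the log2 scale of that of the chosen one. Rpl24, a large subunit protein, was the widest exception, at -0.074 with the chosen probe set and 0.065 with the one on its own chromosome. The sign was the same in 14 of the 16. Several of these further probe sets, such as those of Rps25 and Rplp1, also carry the cross-hybridisation mark. Both probe sets of a gene may then read the same RNA, so their agreement does not separate the gene from its copies. For Rpl15, the probe set on its own chromosome averaged 3.86 and was not above background, whereas the chosen one averaged 11.2.

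**Figure D1:**
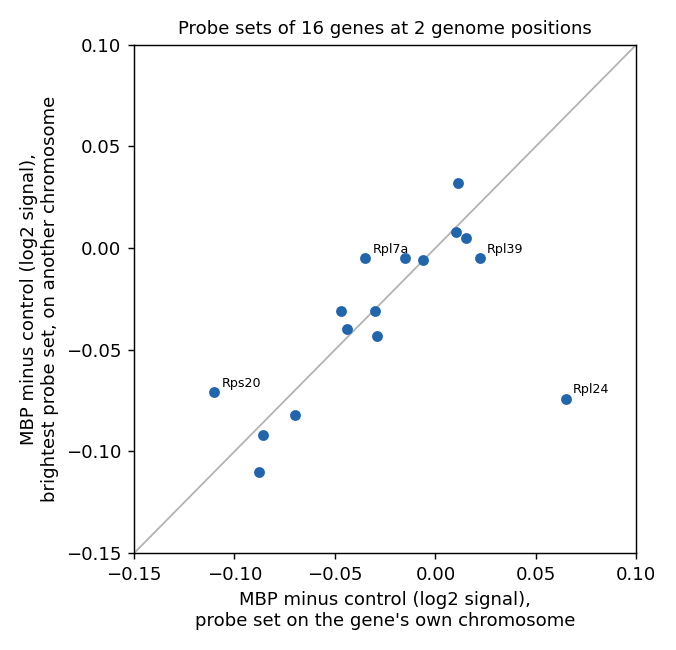
MBP minus control difference in log2 signal for 16 ribosomal protein genes, from the brightest probe set, on another chromosome (vertical axis), and from a probe set on the gene's own chromosome (horizontal axis), with the line of equal values. Most points lie near the line, and Rpl24 stands apart at 0.065 on the horizontal and -0.074 on the vertical axis.

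The main comparison asks whether MBP altered the messenger RNA of these genes. No ribosomal protein gene passed the test. With limma over all 27342 probe sets, 0 of 57 had an adjusted p under 0.05 (smallest adjusted p = 1.0), as did 0.0% of all probe sets, and 0 of 57 had an unadjusted p under 0.05, against 1.28% of all probe sets. With the sample number as a block, 0 of 57 had an adjusted p under 0.05 (smallest adjusted p = 0.865, limma) and 1 had an unadjusted p under 0.05. In that fit 1255 of all 27342 probe sets, and 192 of the 6341 above background on all 6 arrays, had an unadjusted p under 0.05. The groups overlapped for all 57 genes. They did not overlap for 3.43% of all probe sets and for 1.45% of those above background.

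Differences were small. Signals in MBP cultures averaged lower than in control cultures for 41 genes and higher for 16, with a median difference of -0.0353 on the log2 scale and a range of -0.179 to 0.242. Among all 27342 probe sets, 14589 averaged lower. Above background on all 6 arrays, 38 of the 50 genes averaged lower, against 4352 of 6341 probe sets. Over all probe sets the median was -0.0065, and over the 6341 above background on all 6 arrays it was -0.0303, against -0.038 over the 50 ribosomal protein genes above background. At mean log2 signals of 9 to 10 the gene median was -0.0903, below the lower quartile of other probe sets, -0.0705. These values were -0.0695 and -0.0564 at 10 to 11, and -0.0348 and -0.0291 at 11 to 12. At 12 to 13 they were 0.0051 and 0.0077. At 6 to 7, 7 to 8 and 8 to 9 the gene medians were -0.0273, 0.035 and -0.0401, above that quartile. In bulk cultures, fewer cells of a type and less RNA per cell cannot be told apart. The 95% interval excluded a 2-fold difference in either direction for 56 of the 57 genes, the exception being Rpl31l3. The same held for 26899 of all 27342 probe sets. Some of these intervals reached past 1.5-fold, such as those of Rpl31l3 and Rps25 (-0.659 to 0.579). With the sample number as a block, a pairing taken from the data, the interval excluded a 2-fold and a 1.5-fold difference for all 57. In that fit it did so for 27327 and 26994 of all probe sets, in that order. The blocked interval of Rpl31l3 was 0.097 to 0.387. The difference was smaller than the larger of the group SDs for 56 of 57, the exception being Rpl10. The share of all probe sets for this was not counted.

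The size of the median varied between pairs of same-numbered samples. Over the 57 genes, MBP minus control had a median of -0.0761 for number 1, -0.0275 for number 2 and 0.0064 for number 3, with 50, 36 and 28 of the 57 genes lower in MBP cultures. Of all 27342 probe sets, 13012, 12908 and 13441 were lower in that order. Over the 50 genes above background, the medians were -0.0785, -0.0307 and -0.0125 in the same order, with 44, 34 and 27 genes lower. Of the 6341 probe sets above background, 3406, 4395 and 3595 were lower, with medians of -0.0086, -0.0481 and -0.0164. In all 3 pairs, 18 of 57 genes were lower, against 12.3% of all probe sets; among those above background it was 17 of 50, against 21.7%. Both Rpl27 and Rpl31l3 were higher in all 3 pairs. Leaving out both samples of a number kept the median below 0, at -0.0195 without number 1, -0.0456 without number 2 and -0.059 without number 3. Leaving out a single sample leaves the numbers unbalanced between the groups, so that differences between numbers enter the median. It was then 0.0382 without MBP 3, 0.0086 without control 1, 0.0055 without control 2, -0.1259 without control 3, -0.0896 without MBP 2 and -0.0585 without MBP 1. Another scaling gave -0.0214 with quantile normalization, -0.0605 with median centring and -0.0104 with the trend over signal removed.

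**Figure D2:**
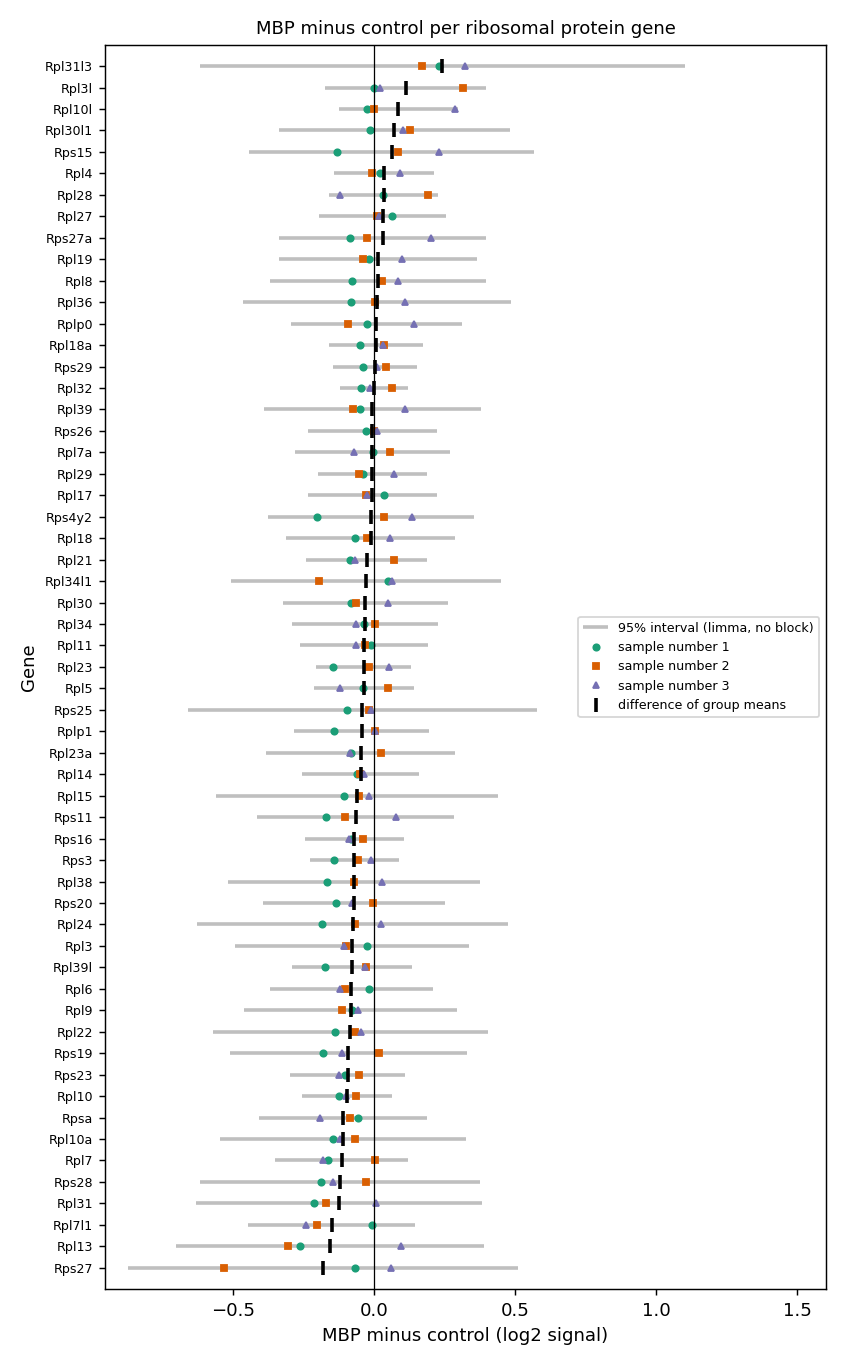
MBP minus control difference in log2 signal (horizontal axis) for each of the 57 genes (vertical axis, ordered by the difference), with the 95% limma interval as a grey bar, the 3 same-numbered pairs as coloured points and the difference of group means as a black mark. Every interval includes 0, and the differences run from -0.179 for Rps27 to 0.242 for Rpl31l3.

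In the large subunit, 29 of 42 genes were lower and 13 higher, with a median of -0.0307. Without the block, the smallest unadjusted p among all members was that of Rpl10, which sits near the transfer RNA sites of the large subunit. With the sample number as a block, the smallest was that of Rpl31l3, and Rpl10 had an unadjusted p of 0.113 (limma). Its log2 signal was 11.273, 11.209 and 11.147 in MBP cultures and 11.397, 11.273 and 11.244 in control cultures. MBP 1 lay above control 3, so the groups overlapped, and the difference was -0.09 (unadjusted p = 0.197, adjusted p = 1.0, limma). Rpl7 lay at 11.161, 11.26 and 10.96 in MBP cultures and at 11.324, 11.255 and 11.14 in control cultures, a difference of -0.11. Its relative Rpl7l1 lay at 8.076, 8.093 and 7.772 in MBP cultures and at 8.082, 8.295 and 8.011 in control cultures, a difference of -0.15. In both genes the lowest sample was MBP 3 and the groups overlapped. Rpl4, a core protein of the large subunit, differed by 0.04 between MBP and control cultures.

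Rpl31l3, named as a copy of Rpl31 and without a RefSeq match here, had the largest difference. Its log2 signal was 8.126, 7.43 and 7.172 in MBP cultures and 7.895, 7.259 and 6.848 in control cultures. Each MBP sample exceeded the control sample of its number, but the groups overlapped, and the 3 numbers lay further apart than the treatments. The difference was 0.24 (95% interval -0.617 to 1.101, adjusted p = 1.0, limma), and with the sample number as a block the unadjusted p was 0.00804 and the adjusted p 0.865.

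The stalk proteins recruit elongation factors to the large subunit. Rplp0, the stalk base, lay at 11.157, 11.084 and 10.949 in MBP cultures and at 11.181, 11.175 and 10.805 in control cultures, a difference of 0.01. Rplp1, which binds to it, differed by -0.04. Rpl5 and Rpl11 join 5S ribosomal RNA and bind the p53 regulator Mdm2. Rpl5 lay at 11.788, 11.879 and 11.649 in MBP cultures and at 11.826, 11.828 and 11.77 in control cultures. Rpl11 lay at 11.015, 11.101 and 10.848 in MBP cultures and at 11.025, 11.133 and 10.91 in control cultures. The groups overlapped for both genes, with differences of -0.04 and -0.03.

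In the small subunit, 12 of 15 genes were lower and 3 higher, with a median of -0.0686. Scaling left the small subunit median below 0 (-0.0455 with quantile normalization, -0.0938 with median centring, -0.0469 with the signal trend removed), and likewise the large subunit median (-0.0159, -0.0559 and -0.0056 in that order). Rps23, which lies at the decoding centre, had log2 signals of 10.606, 10.656 and 10.431 in MBP cultures and of 10.706, 10.707 and 10.554 in control cultures. Each MBP sample was below its same-numbered control, and the difference was -0.09 (adjusted p = 1.0, limma). Rpsa, also known as the laminin receptor precursor, lay at 10.541, 10.691 and 10.313 in MBP cultures and at 10.596, 10.774 and 10.505 in control cultures, a difference of -0.11. Rps3, which also takes part in DNA repair, and Rps16 differed by -0.07 each. On the higher side, Rps15 lay at 9.385, 9.58 and 9.128 in MBP cultures and at 9.514, 9.493 and 8.897 in control cultures, and its pairs pointed in different directions. Rps27a, made as a fusion with ubiquitin, differed by 0.03.

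The range between sample numbers exceeded the difference between treatments, here as for most probe sets on the array. For all 57 genes the difference between MBP and control cultures was smaller than the range between the means of the 3 numbers, whose median was 0.308 on the log2 scale. The same held for 87.5% of all probe sets and for 96.3% of those above background. A range over 3 means tends to exceed a difference of 2 means even without an effect of number. These counts alone therefore do not show such an effect. The deviations of same-numbered MBP and control samples from their group means correlated over the 57 genes at 0.829, 0.638 and 0.796, against -0.623 to -0.019 where the numbers differed, as a description over genes that share each array. The negative values follow in part from the positive ones, because deviations within a group sum to 0. With limma's F-test for sample number, 14 of 57 genes had an adjusted p under 0.05, against 9.62% of all probe sets. Of the 50 above background it was 13, against 24.1% of all probe sets above background, so the share of ribosomal protein genes was near that background. When only probe sets above background were fitted, 38 of the 50 passed, against 63.9% of all probe sets in that fit. Without both samples of number 1, 2 or 3, limma gave 0 of 57 genes and 0 of all probe sets an adjusted p under 0.05. At an unadjusted p under 0.05 it gave 37, 34 and 5 of the 57 genes in that order, against 21.9%, 22.4% and 13.3% of all probe sets.

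The direction, noted after the values were seen, was a lower signal in number 3. Number 3 had the lowest of the 3 means in 53 of 57 genes and in 47 of the 50 above background, against 43.1% of all probe sets above background. The median of number 3 minus the mean of numbers 1 and 2 was -0.245 over the 57 genes, against -0.0197 over all probe sets above background. It was -0.169 with quantile normalization and -0.269 with median centring. Rps25, a small subunit protein used in initiation at some internal entry sites, lay at 8.779, 8.635 and 8.118 in MBP cultures and at 8.872, 8.652 and 8.128 in control cultures (adjusted p = 0.0138 between numbers, limma). Number 3 was the lowest in both groups, and samples of the same number lay close together. Rpl31 lay at 9.797, 10.081 and 9.586 in MBP cultures and at 10.007, 10.249 and 9.578 in control cultures (adjusted p = 0.0354 between numbers, limma). Rpl32 varied least, with means of 12.492, 12.532 and 12.493 for the 3 numbers.

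Besides Rpl31l3, Rps25 and Rpl31, the genes that passed between numbers were Rpl3, Rpl9, Rpl10a, Rpl15, Rpl22, Rpl24, Rpl30l1, Rpl36, Rpl38, Rps19 and Rps28, and Rpl30l1 was not above background. Rpl22, which also binds some cellular and viral RNAs, lay at 10.686, 10.745 and 10.252 in MBP cultures and at 10.822, 10.813 and 10.297 in control cultures (adjusted p = 0.0229 between numbers, limma). Both number 3 samples lay below the other 4. Rps19, the gene most often mutated in human Diamond-Blackfan anaemia, lay at 9.792, 10.048 and 9.515 in MBP cultures and at 9.971, 10.028 and 9.627 in control cultures (adjusted p = 0.0477 between numbers, limma). Rpl38, needed in mice for translation of a subset of Hox messenger RNAs, lay at 10.004, 10.165 and 9.727 in MBP cultures and at 10.17, 10.236 and 9.7 in control cultures (adjusted p = 0.0403 between numbers, limma). In these genes too, both number 3 samples were the lowest. Rps28 lay at 9.863, 10.223 and 9.591 in MBP cultures and at 10.05, 10.25 and 9.736 in control cultures. Its highest samples were those of number 2.

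Other genes varied little between numbers. The range between number means was 0.115 for Rps29, 0.116 for Rps3, 0.117 for Rpl23 and 0.117 for Rpl28. Rpl18 ran the other way, with means of 10.127, 10.379 and 10.435 for numbers 1 to 3 (adjusted p = 0.0788 between numbers, limma), and did not pass. Rpl18 was singled out after its values were seen.

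**Figure D3:**
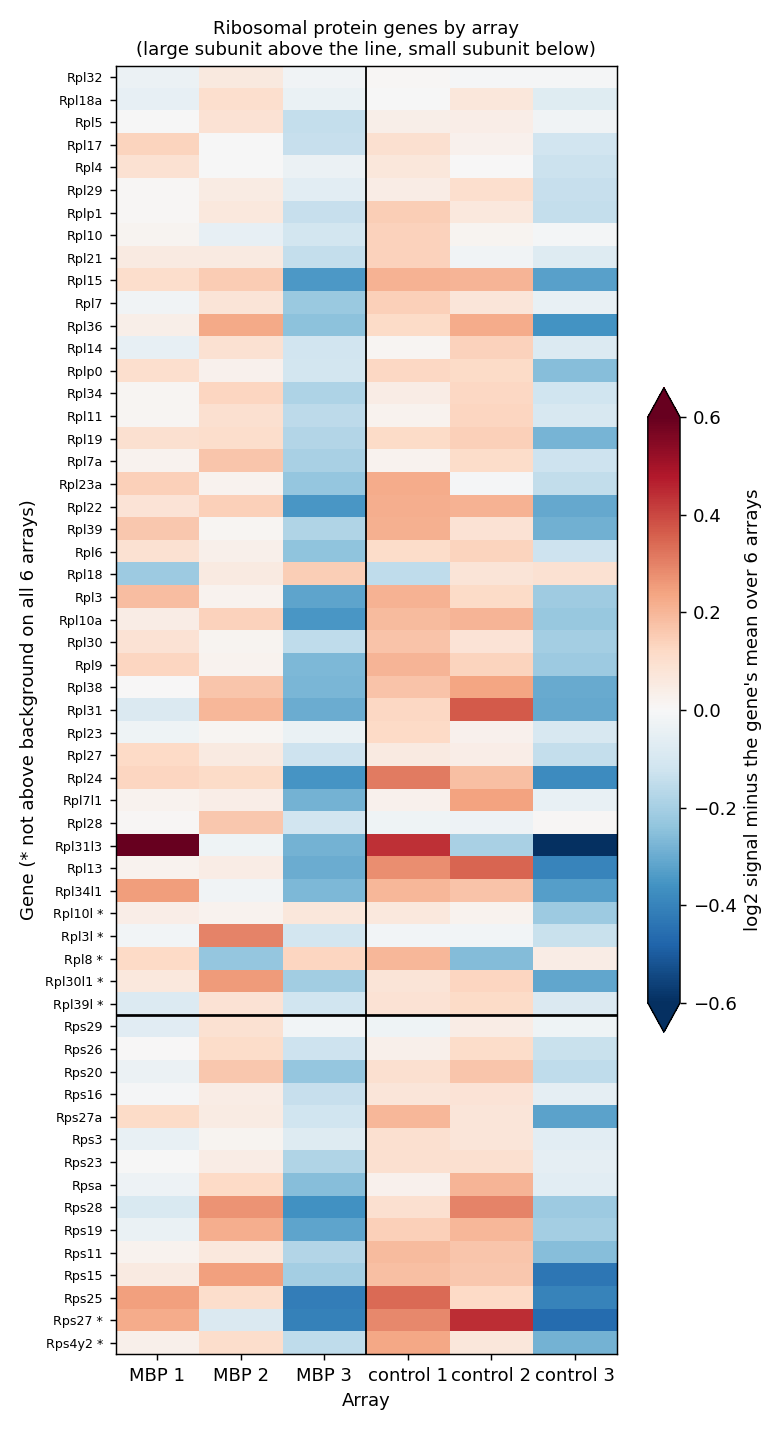
Log2 signal of each ribosomal protein gene minus its own mean over the 6 arrays (colour), by array (columns, MBP samples left of control samples), with the large subunit above the line and genes ordered by mean signal. MBP 3 and control 3 are blue in most genes, with number 3 lowest in 53 of 57.

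Probe sets with a mean log2 signal above 9 were mostly lower in number 3, and the ribosomal protein genes lay further down than the others at low and middle signals. At 7 to 8 the medians were -0.520 over 3 ribosomal protein genes and -0.0193 over 2009 other probe sets, at 8 to 9 they were -0.245 over 5 and -0.0189 over 1172, and at 9 to 10 they were -0.433 over 5 and -0.102 over 582. The single gene at 6 to 7, Rpl34l1, was at -0.449, against 0.0282 over 1970 others. Among other probe sets with a mean log2 signal of 10 to 11, 71.56% were lower in number 3, with a median of -0.204, against -0.308 over the 16 ribosomal protein genes of that range. At 11 to 12 the medians were -0.189 over 17 ribosomal protein genes and -0.118 over 160 other probe sets. At 12 to 13 they were -0.0318 over 3 and -0.0286 over 71. Background was also highest in number 3, at 6.18 on the log2 scale in the MBP sample and 6.196 in the control sample, against 5.81 and 5.85 in MBP samples 1 and 2 and 5.88 and 5.67 in control samples 1 and 2.

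Summed signals of marker lists moved with the sample number as well. The summed signal of the 18 myoid and fibroblast markers was 14.08, 13.91 and 14.55 on the log2 scale in MBP samples 1 to 3 and 14.05, 14.02 and 14.57 in control samples 1 to 3, and none of these markers was below background on all 6 arrays. The 23 Sertoli cell markers summed to 13.05, 13.03 and 13.27 in MBP samples and to 13.04, 13.07 and 13.29 in control samples. Both sums were highest in number 3, as were those of Leydig, germ and endothelial markers. Of the 23 Sertoli cell markers, 14 were above background on no array, and Wt1 did not rise, with means of 7.018, 6.992 and 6.96 for numbers 1 to 3. Macrophage and leukocyte markers, mostly below background, summed lowest in number 3 (8.482, 8.499 and 8.191 in MBP samples, 8.46, 8.593 and 8.156 in control samples). Red cell markers were mixed. The part of these lists in the lower ribosomal protein signal of number 3 was not tested.

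**Figure D4:**
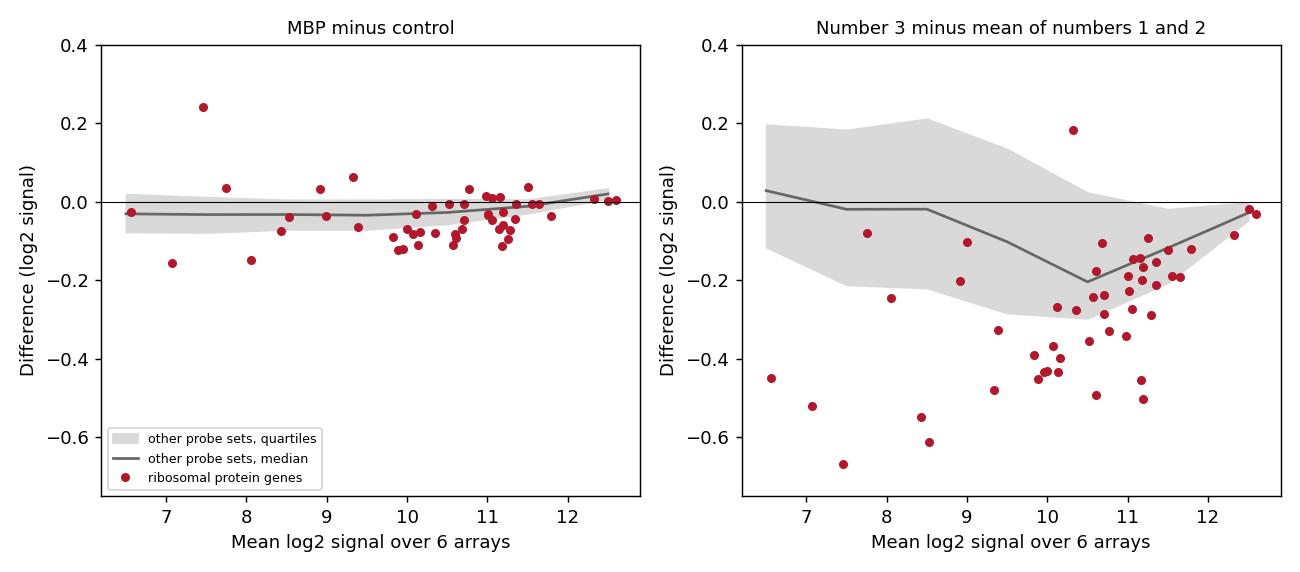
Differences in log2 signal against mean log2 signal for the 50 ribosomal protein genes above background (red points) and for other probe sets (line, median; band, quartiles), with MBP minus control on the left and number 3 minus the mean of numbers 1 and 2 on the right. On the left the median of the points lay below the band in each signal range from 9 to 13, and in or above it from 6 to 9. On the right 49 of the 50 lie below 0.

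The pyrimidine words at the start were also set beside both measures, with no test. The 19 genes with such a word and a signal above background had a median MBP minus control difference of -0.036, against -0.0466 for the 19 without. For number 3 minus numbers 1 and 2 the medians were -0.212 and -0.272.

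Other genes of translation are given as lists that do not include the 57 but share some genes with each other, such as Eef2. For scale, 14589 of all 27342 probe sets and 4352 of the 6341 above background averaged lower in MBP cultures. For none of the lists did a gene pass limma's adjusted test between MBP and control cultures. Of 10 elongation and release factors, 2 averaged higher in MBP cultures and 8 lower, with a median of -0.0272. Eef2, which moves the ribosome along the messenger RNA, lay at 11.02, 10.999 and 10.926 in MBP cultures and at 10.927, 11.095 and 10.937 in control cultures. Of 40 initiation factors, 13 were higher and 27 lower (median -0.0234). Of 43 ribosome assembly genes, 17 were higher and 26 lower (median -0.0055), with Utp15, a small subunit processome protein, at a difference of 0.27 (adjusted p = 1.0, limma) and above background on 1 array. Of 17 genes outside the 57 with pyrimidine tracts or ribosomal fusions, 3 were higher and 14 lower (median -0.0197). Several of these 17 are also counted in the lists above. Of 18 genes of mTORC1 and its control of these messenger RNAs, 7 were higher and 11 lower (median -0.0202), with Larp1 at -0.02 and Mtor at -0.04. Of 7 genes that handle stalled ribosomes, 1 was higher and 6 were lower (median -0.0746).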

How the data were processed

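RNA of 3 MBP and 3 control cultures was hybridised to a 1-colour gene array. The authors deposited log2 signals, 1 per probe set and array, a unit read from the range of the values. MAS5 is listed in the submitters' processing notes, without its role. A further 6 signal columns, which their file headers call RMA signals, matched no sample and were not used. Whether the values used are MAS5 or RMA signals is unknown here. MicroRNA arrays were not used. MBP minus control was fitted with limma 3.58.1 in R 4.3.3 over 27342 main probe sets with Benjamini-Hochberg adjustment and a threshold of 0.05. Simulated data served only to check the code, and how small a change these arrays could detect is not drawn from them. Sample numbers came from the labels. Over all probe sets, deviations from group means correlated at 0.567, 0.603 and 0.779 for same-numbered samples and at -0.535 to 0.048 otherwise. Deviations within a group sum to 0, so the values for different numbers follow in part from those for same numbers. The numbers were taken to pair the samples, on the basis of the data.

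The rule named the genes of smallest p, without the block, in each subunit and direction. It also named stalk genes, paralog pairs, genes with further roles, those of largest and smallest range between numbers, and those at background. Rpl9, Rpl10a, Rpl15, Rpl18, Rpl27, Rpl34l1, Rpl36, and among the list genes Eef2, Larp1 and Mtor, were named outside that rule after their values were seen. Members and lists were chosen with earlier results of these data known. Alternatives were a replicate block, other scalings, filters, probe set choices and left-out samples. The number of arrays limits the precision.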

Additional observations from a re-analysis of the deposited data

How the results depend on the processing

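No alternative gave a ribosomal protein gene with an adjusted p under 0.05 between MBP and control cultures, by limma. With the replicate block, the count was 0, and the block changed no call. The median difference stayed at -0.0353, which a balanced block cannot change. Leaving out 1 sample moved the median from -0.1259 to 0.0382, fits in which the numbers are unbalanced between the groups, and leaving out both samples of a number kept it between -0.059 and -0.0195. The SD of the 3 pair medians was 0.0415. Among genes that differ between numbers, 14 passed as reported, against 9.62% of all probe sets. When only probe sets above background were fitted it was 38 of 50, against 63.9% of all in that fit. Of the 14, 6 were among the 34 genes without a cross-hybridisation mark and 8 among the 23 with it. The count was 0 without both samples of number 1, of number 2 or of number 3, with fewer samples fitted. Restricting the genes to those above background, to probe sets on the gene's own chromosome, or to the brightest probe set there gave medians of -0.038, -0.0466 and -0.04; these settings, and the block on probe sets above background, were chosen after seeing the data. For 35 named genes, 505 of 581 alternative values kept the direction, 76 turned, and none passed the threshold. Fits that changed only the block, the variance estimate or the probe sets fitted return the same difference, so their direction could not turn. The same holds for means over probe sets of genes with 1 probe set. The 505 therefore include values fixed in advance. With 3 arrays per group, small differences cannot be told from 0.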
